A study of Mus musculus with 8 samples.

Results

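Integrins are the paired alpha and beta receptors by which cells hold on to matrix and, in blood cells, to other cells, and focal adhesions are the protein assemblies that tie the integrin tails to actin. The genes described here are every row of the deposited table named as an integrin alpha subunit (Itga and a number or letter) or as 1 of the beta subunits, plus the kinase Ilk, its partners Parva, Parvb and Parvg, the talins Tln1 and Tln2, the kindlins Fermt1, Fermt2 and Fermt3, and Vcl, Ptk2, Pxn and Zyx. The rule used no measured value. It gave 39 of the 35204 genes in the table, namely 18 alpha subunits, 8 beta subunits and 13 adaptors and kinases. The data are 8 poly-A RNA libraries from liver pieces of wild-type C57BL/6J mice. The control group holds 3 libraries from mice without treatment. The TAZ-CCl4 group holds 5 libraries from mice given EF1a-TAZS89A by HTVI (usually read as hydrodynamic tail vein injection), together with the liver toxin carbon tetrachloride (CCl4) 30 times, at 3 injections a week over 10 weeks. TAZ is a transcriptional co-activator that binds TEAD factors, S89A names an amino acid change in it, and EF1a is a promoter that is active in most cell types. The series title places the work in hepatocellular carcinoma. Every TAZ library also had CCl4 and the groups come from separate library projects, so the construct, the toxin and the project cannot be told apart. Neither age nor sex is given in the labels. The labels do not say that each library is a separate mouse, so the p-values rest on the spread among these libraries, part of which may be technical.

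Each integrin receptor joins 1 alpha to 1 beta chain, and the pair sets the ligand: alpha chains partnered with Itgb1 include receptors for collagen, laminin and fibronectin, while Itgb2 pairs with the alpha chains of leukocytes. Talins and kindlins bind the beta tail and switch the receptor on, and ILK with PINCH and a parvin, vinculin, paxillin, FAK (the product of Ptk2) and zyxin build the link to actin and to signalling. In liver, hepatocytes are known for a narrow set of integrins, bile duct cells sit on a laminin basement membrane, and myeloid cells carry the Itgb2 receptors.

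Values are the authors' normalised counts, which have been divided by a scaling factor per library. Summed over genes, a control library held between 29.8 and 35.1 M of them and a TAZ-CCl4 library between 12.4 and 14.2 M. Libraries of a group correlated across genes at 0.929 to 0.979 and libraries of different groups at 0.7099 to 0.793. Of the 10 hepatocyte markers checked, 9 were lower in TAZ-CCl4 at the deposited scaling, against 29.8% of all genes tested. When libraries were brought to equal totals 5 of the markers were lower, against 6.37% of all genes, and Hnf4a turned to 0.29 on the log2 scale. None was at 0, and their summed level was 2153770 to 2640960 in the controls and 714325 to 1027230 in TAZ-CCl4. How libraries are scaled sets where 0 lies: the median log2 fold change of the 14171 genes tested was 0.03 at the deposited scaling and 1.26 at equal totals. Directions below are for the deposited scaling, and where a named gene turned at equal totals its value is given.

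Most integrin genes were higher in the TAZ-CCl4 livers, while at the deposited scaling the most abundant beta chain, Itgb1, and the scaffold genes Ilk and Parva were not called changed. Itgb1, Parva and Vcl were called higher under each of the 4 other scalings, and Ilk under 3 of them (not at equal upper quartiles). Of the 39 genes, 37 entered the test, having averaged at least 10 across the libraries, and Itga11 and Itgad fell short of that. In limma's fit, 28 of the 37 (75.7%) were higher and 3 were lower at an adjusted p under 0.05, against 32.4% higher and 29.8% lower of all genes tested, and 6 missed the threshold. Itga2, Itgae, Itgb6, Fermt1 and Parvg reached the minimum only through the TAZ-CCl4 libraries, and of the other 32 genes 23 were higher, 3 lower and 6 did not pass. The median log2 fold change was 1.48 over the 37 genes, 1.03 over those 32 and 0.03 over all genes tested. At equal totals 35 of the 37 were higher and none lower, against 76.3% higher and 6.37% lower of all genes, with medians of 2.73 over the 37 genes, 2.28 over the 32 and 1.26 over all genes. Every TAZ-CCl4 library lay above every control for 26 of the 37 genes, against 30.7% of all genes, and below every control for 1, against 29.4% of all genes. Those 26 include all 5 genes that reached the minimum only through the TAZ-CCl4 libraries, for which the filter itself favours such a separation. In bulk liver RNA, fewer cells of a type and less RNA per cell cannot be told apart, and the same holds for more.

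**Figure D1:**
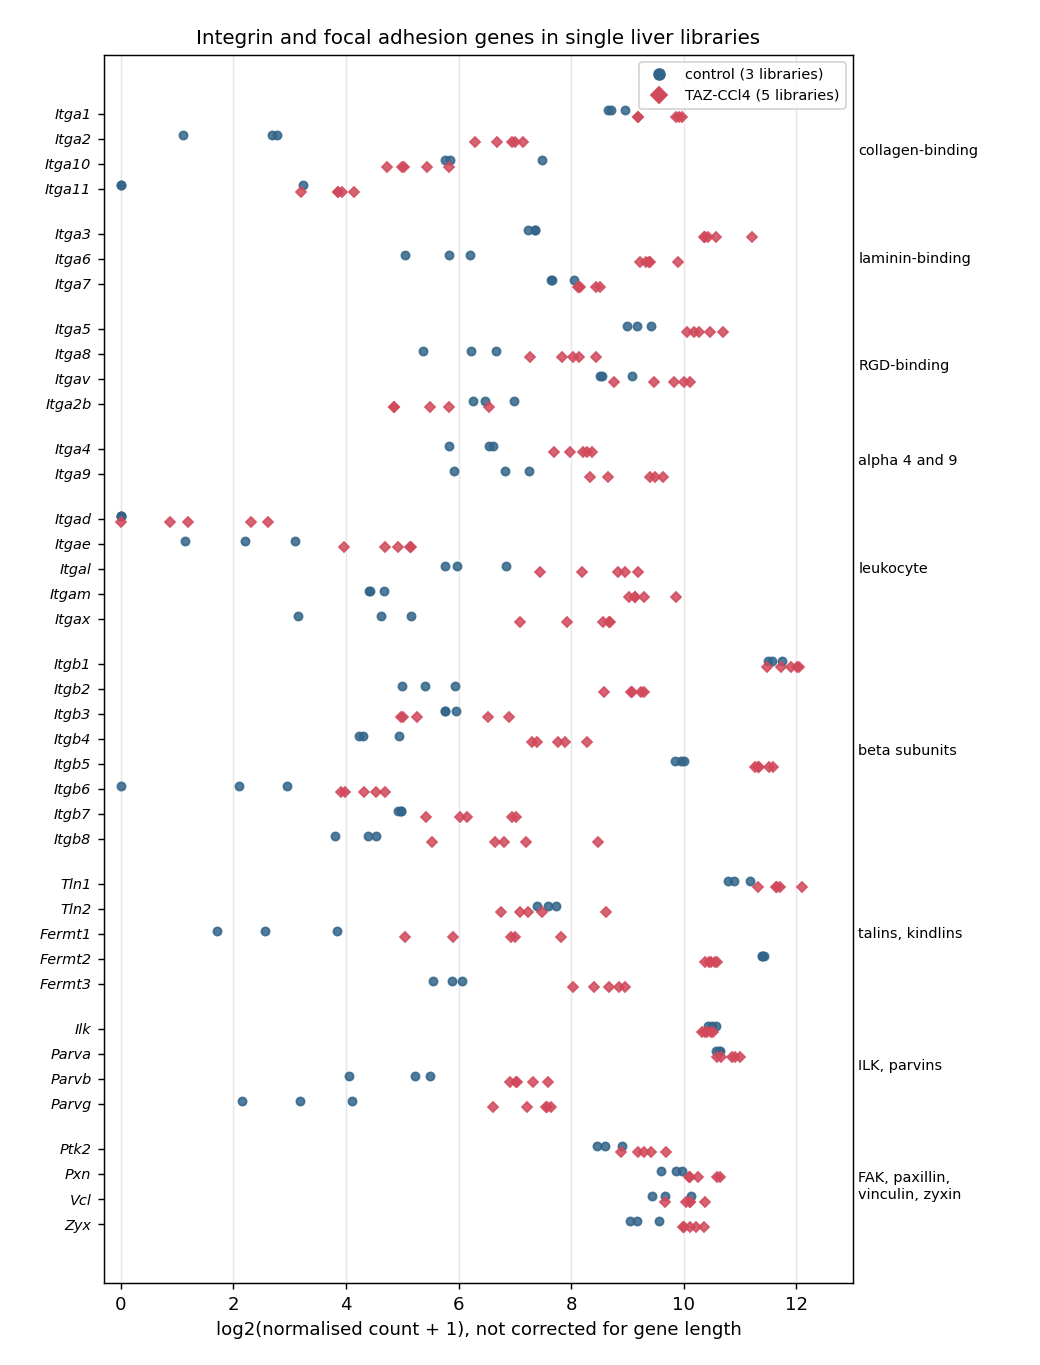
Level of each of the 39 genes in each library as log2(normalised count + 1), not corrected for gene length, with 3 controls as circles and 5 TAZ-CCl4 libraries as diamonds, grouped by role. For 26 of the 37 tested genes all diamonds lie to the right of all circles, for Fermt2 they all lie to the left at this scaling (its fold change turns to 0.34 at equal totals), and Itgb1, Ilk and Parva lie close together at the high end.

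**Figure D2:**
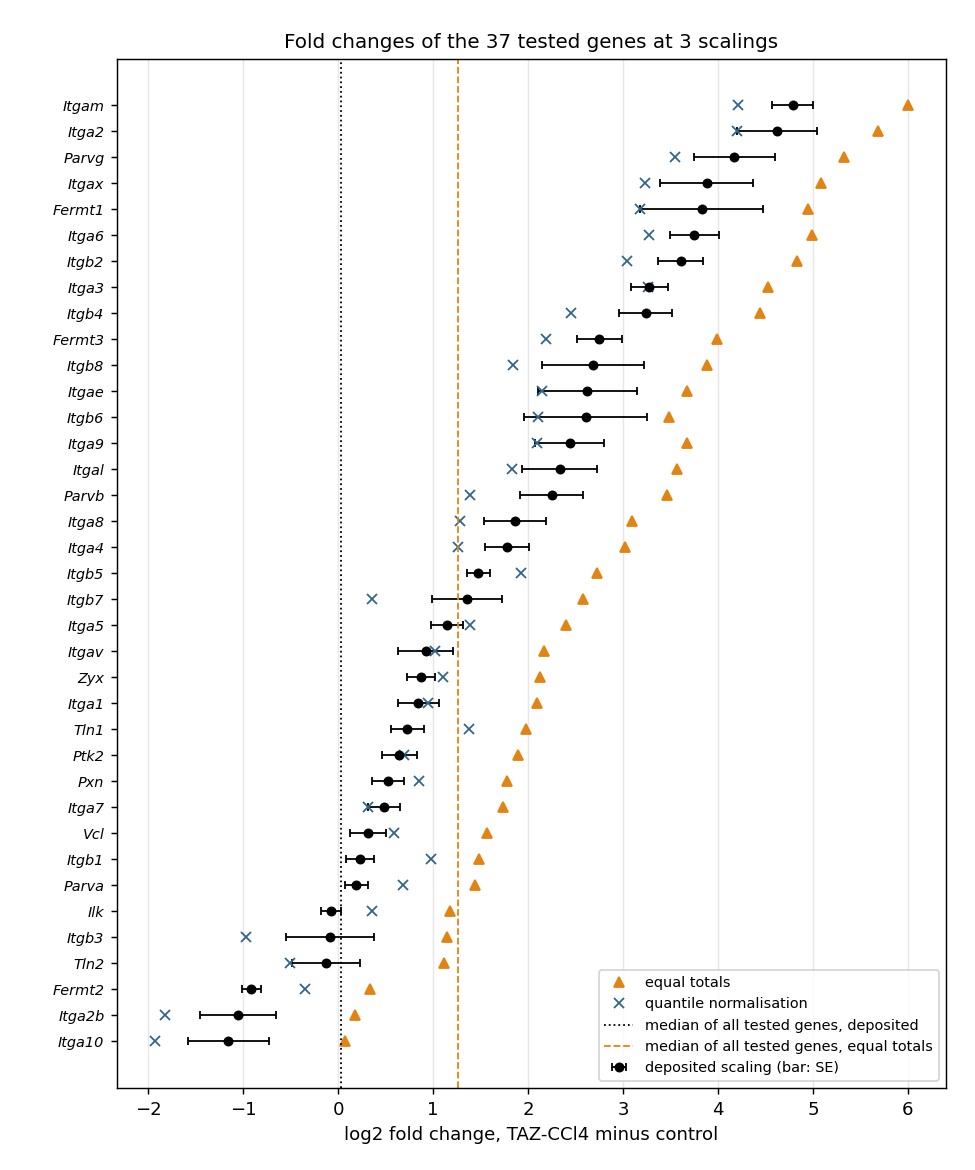
Log2 fold change of TAZ-CCl4 against control for the 37 tested genes at the deposited scaling (points, bars are the SE), at equal totals (triangles) and after quantile normalisation (crosses), with the median of all tested genes as vertical lines for the first pair of scalings. Itga10, Itga2b and Fermt2 lie below 0 at the deposited scaling and above 0 at equal totals, where they stay left of the median of all genes at 1.26.

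TAZ acts through TEAD factors, whose core site is CATTCC, so the 250 bases before the start sites were read from RefSeq (GRCm38.p6). The table matched 27 of the 39 genes with 31 start sites. CATTCC on either strand stood in 3 of the 31 (Itga10, Itgb1 and Vcl), against 12.6% of 32851 promoters of the same length. The AP-1 site TGANTCA stood in 2 (Itgax and Zyx, 6.75% of all promoters), and the CArG box of serum response factor in 3 (Itgb6, Vcl and Fermt2, 1.47% of all promoters), each on either strand. None of the 3 genes with CATTCC was called higher at the deposited scaling, while at equal totals Itgb1 and Vcl were called higher and Itga10, called lower before, turned to a log2 fold change of 0.07. Most of the 31 start sites, those of genes called higher included, held no CATTCC. A relation of the motif to the levels was not tested. The promoters below are those of the 3 genes with CATTCC and, as examples without any of the motifs, Itga2 and Itgb5. Sequences run 5′ to 3′ toward the gene, capitals mark CATTCC or its reverse complement, and in Vcl also the CArG box.
Itgb1, chr8:128685404-128685653, plus strand, motif from 7 bases before the start: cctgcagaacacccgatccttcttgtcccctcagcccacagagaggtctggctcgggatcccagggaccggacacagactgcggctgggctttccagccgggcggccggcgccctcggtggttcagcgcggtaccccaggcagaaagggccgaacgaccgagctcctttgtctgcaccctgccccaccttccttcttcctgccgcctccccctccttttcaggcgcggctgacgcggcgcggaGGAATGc
Itga10, chr3:96645334-96645583, plus strand, motif from 75 bases before the start: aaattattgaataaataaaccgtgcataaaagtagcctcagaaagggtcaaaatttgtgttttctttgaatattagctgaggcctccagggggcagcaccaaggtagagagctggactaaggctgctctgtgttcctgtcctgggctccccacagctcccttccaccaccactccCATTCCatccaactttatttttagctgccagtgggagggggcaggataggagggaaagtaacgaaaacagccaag
Vcl, chr14:20929148-20929397, plus strand, motif from 143 bases before the start: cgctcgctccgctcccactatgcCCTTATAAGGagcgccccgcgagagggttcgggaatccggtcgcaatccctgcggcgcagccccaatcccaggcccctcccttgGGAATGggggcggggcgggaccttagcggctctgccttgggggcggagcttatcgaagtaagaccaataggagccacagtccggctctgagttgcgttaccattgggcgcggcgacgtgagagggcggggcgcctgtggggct
Itgb5, chr16:33829415-33829664, plus strand: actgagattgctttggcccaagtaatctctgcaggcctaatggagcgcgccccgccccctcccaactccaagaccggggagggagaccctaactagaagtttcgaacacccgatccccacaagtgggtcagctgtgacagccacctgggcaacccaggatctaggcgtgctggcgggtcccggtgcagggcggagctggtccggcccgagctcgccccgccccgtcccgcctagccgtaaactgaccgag
Itga2, chr13:114932101-114932350, minus strand: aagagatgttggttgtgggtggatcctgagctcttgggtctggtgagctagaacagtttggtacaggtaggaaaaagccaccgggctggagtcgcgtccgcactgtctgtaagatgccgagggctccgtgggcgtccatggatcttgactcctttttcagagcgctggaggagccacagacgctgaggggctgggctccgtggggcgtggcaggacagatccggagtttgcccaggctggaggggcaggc
A match is a run of letters and does not show binding, and a window without a match says nothing about sites elsewhere.

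Among the beta chains, the 6 called higher were Itgb2, Itgb4, Itgb5, Itgb6, Itgb7 and Itgb8, and Itgb1 and Itgb3 did not pass. Itgb1, the partner of most matrix-binding alpha chains (chromosome 8, 128685654 to 128733200 in mm10), read 3047, 3409 and 2887 in the controls and 4109.6, 2858, 3846, 3397 and 4197 in the TAZ-CCl4 libraries. The groups overlapped, and the log2 fold change was 0.23 ± 0.15 (SE, adjusted p = 0.204), 1.48 at equal totals and 0.97 after quantile normalisation. Itgb5, which pairs with Itgav to bind vitronectin (chromosome 16, 33829665 to 33949338), read 989, 1028 and 911 in the controls and 2593, 2554, 3081, 2453 and 2936 in TAZ-CCl4. Its groups lay far apart, with means of 976 ± 59.5 (SD, n = 3) and 2723 ± 270.1 (SD, n = 5) and a log2 fold change of 1.48 ± 0.12 (adjusted p = 3.99e-06). Per kb of its longest annotated transcript, Itgb1 stood at 816 ± 70.1 in the controls and 965 ± 146 in TAZ-CCl4, and Itgb5 at 297 ± 18.1 and 829.8 ± 82.3. On that scale the Itgb5 level in TAZ-CCl4 was within the SD of that of Itgb1, whereas per kb of coding length Itgb1 (1538 ± 232) stayed above Itgb5 (1112.5 ± 110.3) by more than either SD.

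Itgb4, the chain that pairs with Itga6 in hemidesmosomes of epithelia, rose from 17.8, 18.6 and 29.6 to 309, 216, 166, 235 and 158, a log2 fold change of 3.24 ± 0.28 (adjusted p = 5.92e-06). Itgb8, which with Itgav activates latent TGF-beta, read 12.9, 20.04 and 22.3 in the controls and 145, 111, 45.2, 353 and 99.6 in TAZ-CCl4. All 5 libraries were above the controls, but replicate 4 stood high, and without it the TAZ-CCl4 mean fell from 151 to 100.4. Itgb6, an epithelial chain that also activates TGF-beta, was near the floor in the controls (0, 3.29 and 6.76) and read 14.8, 14.1, 22.2, 24.97 and 18.9 in TAZ-CCl4. Its control mean of 3.35 fell to 1.645 without control replicate 3, so its log2 fold change of 2.60 ± 0.64 (adjusted p = 0.00519) rests on very low values. These 3 chains rose beside the cholangiocyte markers. Of the 9 markers tested, 8 were higher, against 32.4% of all genes tested, and all 9 were higher at equal totals, against 76.3%. The summed level of the markers was 2363 to 2956 in the controls and 35280 to 123159 in TAZ-CCl4, where Spp1 alone averaged 56155. TAZ-CCl4 replicate 4 was highest in Itgb8 and in that sum, of which Spp1 made up 115100 of 123159. Spp1 made up 47334 of 56431 in replicate 1, which was highest of the group in the markers other than Spp1. No marker of that list was at 0 throughout, and its part in these results was not tested.

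Itgb3, the chain of the platelet fibrinogen receptor and of the Itgav vitronectin receptor, split within the TAZ-CCl4 group. It read 52.8, 53.0 and 61.1 in the controls and 119, 91.0, 30.5, 31.4 and 37.1 in TAZ-CCl4. TAZ-CCl4 replicates 1 and 2 were above the controls and the other 3 below them, and the log2 fold change was -0.09 ± 0.47 (adjusted p = 0.883), or 1.14 at equal totals. Itgb7, a lymphocyte homing chain, read 30.5, 30.5 and 29.2 in the controls and 41.7, 69.7, 123, 129 and 64.2 in TAZ-CCl4. The difference was 1.36 ± 0.37 (adjusted p = 0.00914), but quantile normalisation reduced it to 0.36 and ended the call.

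The 3 laminin-binding alpha chains were all higher. Itga3 (chromosome 11, 95044474 to 95076801), an epithelial receptor for laminin, read 162, 162 and 149.8 in the controls and 2369.9, 1519, 1318, 1329.5 and 1372 in TAZ-CCl4. The controls lay close together and every TAZ-CCl4 library was far above them, with a log2 fold change of 3.28 ± 0.19 (adjusted p = 8.59e-07). Itga6 (chromosome 2, 71745616 to 71858416), the partner of Itgb4 and of Itgb1 in laminin receptors, read 72.9, 55.6 and 32.2 against 671, 642, 662, 953 and 598. Its rise was 3.75 ± 0.26 (adjusted p = 1.69e-06), and TAZ-CCl4 replicate 4, highest in Itgb8 and Spp1, was again the highest. Itga7, better known from muscle, moved little: 199.6, 201 and 264 in the controls and 277, 344, 365, 279 and 285 in TAZ-CCl4. Its log2 fold change of 0.49 ± 0.17 (adjusted p = 0.0277) lost the call after quantile normalisation and without control replicate 1, control replicate 2 or TAZ-CCl4 replicate 3.

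The collagen-binding alpha chains went apart. Itga1, which pairs with Itgb1 to bind collagen IV and I, rose from 402, 497 and 418 to 959.7, 582, 1005, 579 and 923, a log2 fold change of 0.85 ± 0.22 (adjusted p = 0.00631). Itga2 (chromosome 13, 114833081 to 114932100), its relative with a preference for fibrillar collagen, was hardly present in the controls at 5.44, 5.80 and 1.15 and read 101, 140.3, 77.6, 123 and 126 in TAZ-CCl4. The ratio of means was 27.5 and the log2 fold change 4.63 ± 0.42 (adjusted p = 7.96e-06), the second highest of the 37 genes after Itgam. Itga10, a chain known from cartilage, read 177, 56.2 and 53.4 in the controls and 25.5, 42.3, 30.8, 55.7 and 31.6 in TAZ-CCl4. Control replicate 1 alone stood high, and without it the control mean fell from 95.5 to 54.8 and the log2 fold change from -1.16 ± 0.43 (adjusted p = 0.0362) to -0.60 with no call, while at equal totals it turned to 0.07. Itga10 shares 33.5% of its exonic bases with the same-strand gene Gm42957, so the split of reads between them is uncertain. Itga11, a fibroblast collagen receptor under the minimum, was at 0 in 2 controls, at 8.44 in the other, and at 8.15, 13.5, 16.7, 13.5 and 14.2 in TAZ-CCl4. Of the stellate and fibroblast markers, 6 of 10 were higher, none was lower or at 0, and their sum was 2369 to 4018 in the controls and 8557 to 16328 in TAZ-CCl4. The endothelial markers summed to 1916 to 3512 and 2608 to 3736, with 4 of 9 tested higher and 2 lower at the deposited scaling and 7 higher and none lower at equal totals. At equal totals 8 of the stellate and fibroblast markers were higher. Of all genes tested, 32.4% were higher and 29.8% lower at the deposited scaling, and 76.3% and 6.37% at equal totals, so the endothelial counts of higher genes lay near the shares of all genes. The part of either list in the levels of Itga1, Itga8 and Itga11 was not tested.

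Of the alpha chains that bind the RGD motif of fibronectin and vitronectin, Itga5, Itga8 and Itgav were higher. Itga5, the classic fibronectin receptor chain, rose from 505, 575 and 679.6 to 1067, 1228, 1414, 1648 and 1166, a log2 fold change of 1.14 ± 0.16 (adjusted p = 0.000169). Itga8, a chain of contractile mesenchymal cells, rose from 40.3, 100.4 and 73.6 to 227, 154, 260.3, 347 and 281, a difference of 1.86 ± 0.33 (adjusted p = 0.000639). Itgav, which pairs with Itgb3, Itgb5, Itgb6 and Itgb8 as well as Itgb1, read 372, 363 and 536 in the controls and 705, 430.3, 905, 1021 and 1101 in TAZ-CCl4. TAZ-CCl4 replicate 2 fell inside the control range, and the log2 fold change of 0.92 ± 0.29 (adjusted p = 0.0176) lost its call without control replicate 1 (0.84) or control replicate 2 (0.82). Itga2b, the platelet chain, read 125, 75.0 and 87.3 in the controls and 27.8, 27.7, 43.8, 92.1 and 55.6 in TAZ-CCl4. Replicate 4 overlapped the controls, and the log2 fold change of -1.06 ± 0.40 (adjusted p = 0.0414) turned to 0.18 at equal totals and lost its call without any 1 of the 3 controls or of TAZ-CCl4 replicates 1 to 3. Of the 10 platelet and megakaryocyte markers, which include Itga2b, 2 were tested, Itga2b itself and Pf4, and Pf4 was higher. The sum of that list was 110.3 to 170.4 in the controls and 89.6 to 266 in TAZ-CCl4, and its part in the level of Itga2b was not tested.

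Itga4 and Itga9, receptors for fibronectin, VCAM1, osteopontin and tenascin on leukocytes and other cells, both rose. Itga4 read 56.1, 96.9 and 91.5 in the controls and 295, 205, 330.1, 252 and 309 in TAZ-CCl4, a log2 fold change of 1.78 ± 0.23 (adjusted p = 9.48e-05). Itga9 read 59.3, 152 and 112 against 794, 322, 670.5, 403 and 714, a difference of 2.44 ± 0.36 (adjusted p = 0.000212). Neither gene's groups overlapped.

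All 4 tested alpha chains of leukocyte receptors rose, as did Itgb2, the partner of Itgam, Itgax and Itgal. Itgb2, the shared chain of the leukocyte receptors (chromosome 10, 77530252 to 77565708), read 41.1, 60.4 and 30.8 in the controls and 600.1, 383, 624, 541 and 532 in TAZ-CCl4, a log2 fold change of 3.61 ± 0.24 (adjusted p = 1.48e-06). Itgam, the CD11b chain of macrophages and neutrophils (chromosome 7, 128062640 to 128118491), read 24.4, 20.4 and 20.2 against 931, 517, 558, 559.5 and 623. Its log2 fold change of 4.79 ± 0.21 (adjusted p = 1.97e-07) was the highest of the 37 genes. Itgam shares 68.7% of its exonic bases with the same-strand gene Gm49368, which was listed at no more than 8.33 in any library. Itgax, the CD11c chain, rose from 34.6, 7.80 and 23.7 to 243, 135, 404, 379 and 410.1, a difference of 3.88 ± 0.49 (adjusted p = 7.26e-05). Itgal, the LFA-1 chain common to most leukocytes, rose from 61.4, 114 and 52.9 to 492, 174, 579.8, 292 and 455, a difference of 2.33 ± 0.39 (adjusted p = 0.000504). TAZ-CCl4 replicate 2 was the lowest of its group for Itgb2, Itgam, Itgal and Itgax, as it was for Ptprc and the macrophage markers described next. Itgae, the CD103 chain that pairs with Itgb7, read 7.54, 1.21 and 3.59 against 14.5, 24.8, 34.4, 34.0 and 29.5 (2.62 ± 0.52, adjusted p = 0.00134), and its control mean of 4.11 fell to 2.399 without control replicate 1. Itgad was listed at 0 in all 3 controls and at 0 to 5.14 in TAZ-CCl4.

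Markers of leukocytes are given beside these chains, against 32.4% higher of all genes tested. The macrophage markers summed to 2091 to 3143 in the controls and 8034 to 16014 in TAZ-CCl4 (5 of 10 higher, 1 lower), the neutrophil markers to 64.2 to 75.6 and 413 to 768 (5 of 5 tested higher), and the dendritic cell markers, which include Itgax, to 388 to 753 and 2111 to 6308 (4 of 8 tested higher). The T and NK cell markers summed to 96.3 to 125 and 181 to 467 (6 of 9 tested higher), and the B and plasma cell markers to 3076 to 4249 and 4538 to 10960 (4 of 10 higher, 1 lower, and 3 higher and 4 lower after quantile normalisation). The minimum mean of 10 was taken over all libraries, so a marker low in the controls can enter the test only through TAZ-CCl4. For such markers the filter favours a call of higher, which limits the counts of the T and NK and neutrophil lists, whose control sums were low. Ptprc, the CD45 gene carried by leukocytes, rose from a mean of 106 ± 35.3 to 973 ± 314, a log2 fold change of 3.17 ± 0.29. Against Ptprc within each library, Itgb2 differed by 0.44 on the log2 scale (exact two-sided permutation test, p = 0.143, adjusted p = 0.176), Itgax by 0.71 (p = 0.50) and Itgal by -0.83 (p = 0.0714, adjusted p = 0.100), all 3 with overlapping groups. Itgam was 0.139 to 0.310 times the level of Ptprc in the controls and 0.425 to 1.11 times in TAZ-CCl4, a difference of 1.62 on the log2 scale with no overlap. That is the smallest p the 56 splits of 3 and 5 libraries allow, 0.0357, and its adjusted p over the 21 ratios computed was 0.0577.

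The composition of each chain family, which does not depend on the scaling of the libraries, also differed. Per kb of transcript, Itgb1 made up 70.6 ± 0.594% (SD, n = 3) of the beta chain sum in the controls and 46.4 ± 2.84% (SD, n = 5) in TAZ-CCl4, with ranges of 70.1% to 71.3% and 42.8% to 49.5%. Itgb5 went from 25.8 ± 0.738% to 40.1 ± 3.18% and Itgb2 from 1.27 ± 0.331% to 8.66 ± 0.924%, and neither overlapped. Among the alpha chains, Itga5 went from 29.9 ± 2.99% to 19.3 ± 3.71% of the sum, while Itga3 went from 7.37 ± 0.676% to 21.1 ± 5.31%, Itga6 from 2.85 ± 1.20% to 10.6 ± 2.08% and Itgam from 1.05% to 8.77%. Itgav, Itga7, Itga1 and Itga2b took smaller shares in every TAZ-CCl4 library than in any control, although Itgav, Itga7 and Itga1 were higher in level. The summed level per kb was 443 ± 22.2 against 1546 ± 173 for the alpha chains and 1156 against 2075 for the beta chains. With coding length in place of the longest transcript, Itgb1 was at 73.5% and 50.1% and Itgb5 at 22.6% and 36.5%.

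**Figure D3:**
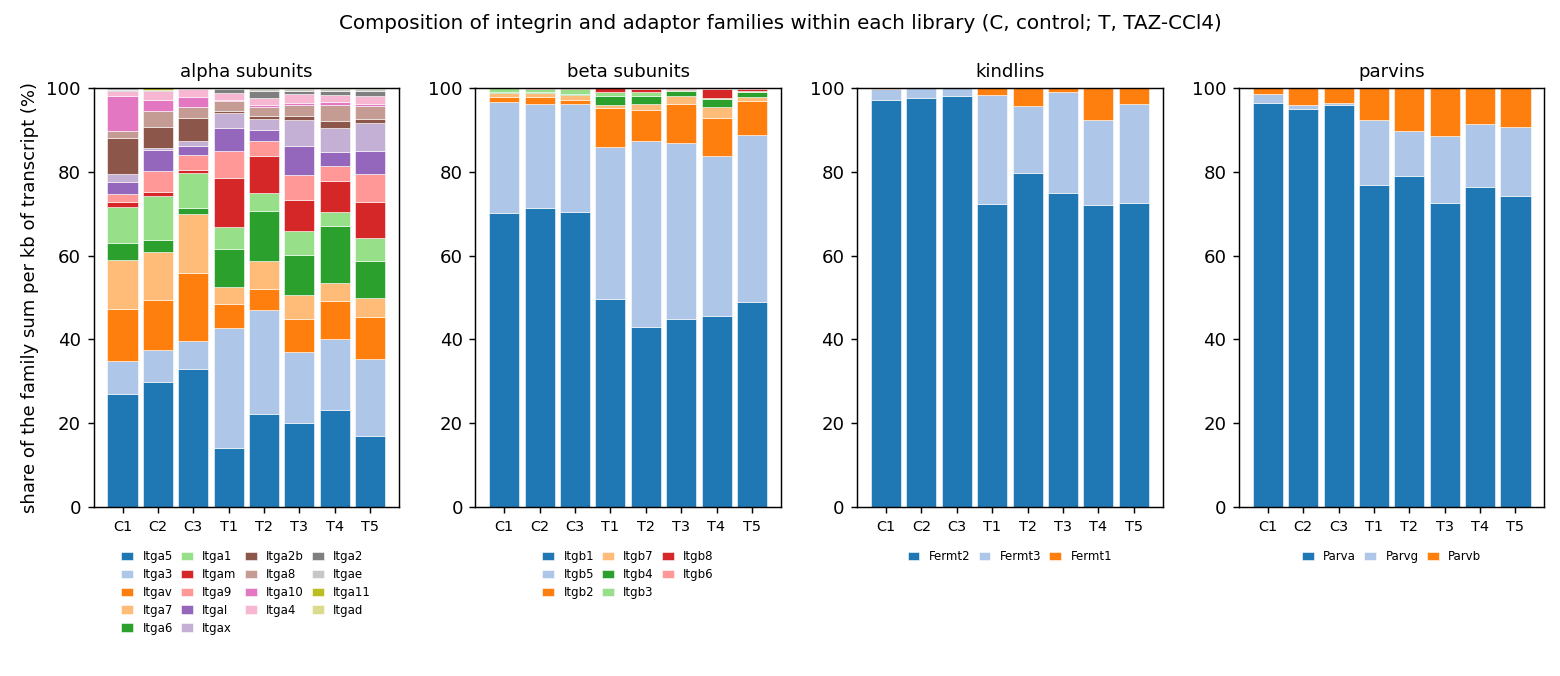
Share of each gene in the sum of its family per kb of longest transcript, in percent, for each library (C1 to C3, control; T1 to T5, TAZ-CCl4), with alpha chains, beta chains, kindlins and parvins in separate panels. Itgb1 falls from about 70.6% to 46.4% of the beta chains, Fermt2 from 97.6% to 74.2% of the kindlins and Parva from 95.7% to 75.7% of the parvins.

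Of the 21 ratios between 2 genes of a library, 13 separated the groups without overlap, each at the smallest p the exact two-sided permutation test allows (0.0357, adjusted p = 0.0577), and none passes an adjusted threshold of 0.05. Itgb5 was 0.302 to 0.325 times Itgb1 in the controls and 0.631 to 0.894 times in TAZ-CCl4. The log2 ratio to Itgb1 was higher in TAZ-CCl4 by 3.38 for Itgb2, 3.01 for Itgb4, 2.37 for Itgb6 and 2.46 for Itgb8. Each of those 4 chains was therefore higher relative to Itgb1 in every TAZ-CCl4 library than in any control. As a share of the whole beta chain sum per kb of transcript, Itgb8 overlapped, with 0.240% in TAZ-CCl4 replicate 3 and 0.246% in control replicate 3. By coding length its shares narrowly did not overlap, with 0.603% and 0.587% in the same libraries. The log2 ratio to the collagen receptor Itga1 was higher by 3.78 for Itga2, 2.91 for Itga6 and 2.43 for Itga3, and by 0.30 for Itga5 and 0.08 for Itgav, both with overlapping groups. Itga3 and Itga6 thus gained on Itga1, and no such separation was seen for Itga5 and Itgav. This is not a contrast of ligand classes, since the laminin-binding Itga7 and the fibronectin-binding Itga8, Itga4 and Itga9 were not put over Itga1. Their log2 fold changes were 0.49, 1.86, 1.78 and 2.44, against 0.85 for Itga1.

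**Figure D4:**
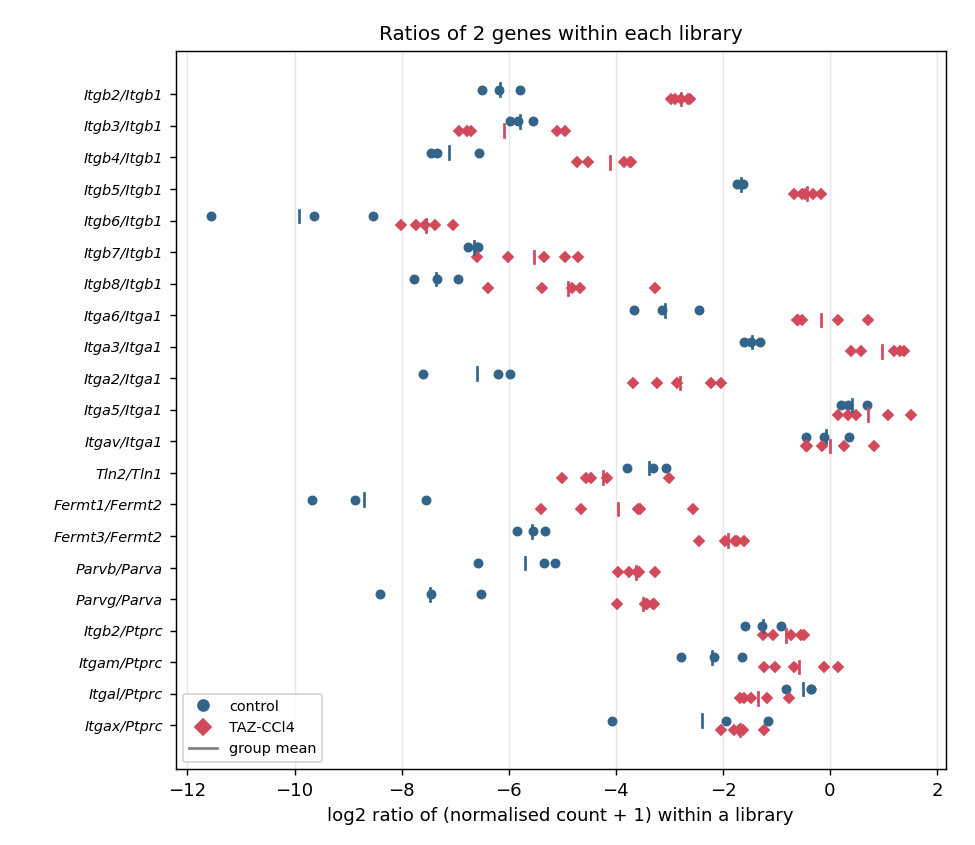
Log2 ratio of 2 genes' normalised counts (each plus 1) within a library, for the 21 ratios, with controls as circles, TAZ-CCl4 libraries as diamonds and group means as vertical ticks. For 13 ratios the groups do not overlap, and for the 8 others, among them Itga5/Itga1, Itgav/Itga1 and Itgb2/Ptprc, they do.

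The proteins that switch integrins on differed between kinds. Tln1, the talin of most cells, rose from 1767, 1906 and 2309 to 4365, 3169, 3323, 2545 and 3229.8, a log2 fold change of 0.73 ± 0.17 (adjusted p = 0.00415). Tln2, its relative of muscle and brain, read 211, 192 and 166 in the controls and 134, 394, 149, 107 and 178 in TAZ-CCl4, where replicate 2 stood above the others, and its difference of -0.13 ± 0.36 (adjusted p = 0.765) was 1.11 at equal totals. Fermt2, the kindlin of most solid tissues (chromosome 14, 45458795 to 45530118), read 2687, 2759.9 and 2671 in the controls and 1505, 1426, 1393, 1325 and 1532 in TAZ-CCl4. The groups were tight and far apart, with a log2 fold change of -0.92 ± 0.10 (adjusted p = 3.57e-05). At equal totals the value was 0.34 (adjusted p = 0.0288), which is below the median of 1.26 for all genes at that scaling. Per kb of its longest transcript, Fermt2 was the highest of the 39 genes in the controls, at 822 ± 14.3, and the fourth in TAZ-CCl4, at 436 ± 25.5.

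The other kindlins rose. Fermt1, the kindlin of epithelia, read 13.4, 4.89 and 2.28 in the controls and 58.8, 120.3, 31.9, 224 and 126 in TAZ-CCl4, a log2 fold change of 3.83 ± 0.65 (adjusted p = 0.000512). Replicate 4 was highest, as for Itgb8 and Spp1, and without control replicate 1 the control mean of 6.85 fell to 3.584. Fermt3, the kindlin of blood cells, rose from 66.1, 57.9 and 45.6 to 492, 262, 407, 338 and 458, a difference of 2.75 ± 0.23 (adjusted p = 5.27e-06). As shares of the kindlin sum per kb, Fermt2 went from 97.6 ± 0.519% to 74.2 ± 3.24%, Fermt3 from 2.24% to 22.1% and Fermt1 from 0.155% to 3.70%, with no overlap for any of the 3. The log2 ratio to Fermt2 was higher by 4.74 for Fermt1 and 3.67 for Fermt3.

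The parvins, which tie ILK to actin, shifted in a like way, with the common form not called changed at the deposited scaling and the others higher. Ilk read 1385, 1443 and 1519 in the controls and 1425, 1469, 1334, 1284 and 1367 in TAZ-CCl4, a difference of -0.08 ± 0.10 (adjusted p = 0.551) that became 1.18 at equal totals. Ilk shares 76.7% of its exonic bases with Taf10 on the opposite strand, and whether the authors' quantification used strand is not given in the sources used here. Parva, the parvin of most tissues, read 1585, 1591 and 1512 against 2031, 1529, 1847, 1626 and 1930.0, a difference of 0.19 ± 0.12 (adjusted p = 0.206) that was 1.44 at equal totals, 0.43 at equal upper quartiles and 0.68 after quantile normalisation, each called. Parvb rose from 15.6, 44.2 and 36.2 to 129.6, 128, 190.4, 119 and 158, a difference of 2.25 ± 0.33 (adjusted p = 0.000208). Parvg, the parvin of blood cells, rose from 16.2, 8.08 and 3.44 to 189.8, 96.6, 187, 148 and 197, a difference of 4.17 ± 0.43 (adjusted p = 1.8e-05), and without control replicate 1 its control mean of 9.25 fell to 5.759. Parva made up 95.7% of the parvin sum per kb of longest transcript in the controls and 75.7% in TAZ-CCl4, and Parvg went from 1.22% to 14.8%. By coding length the shift was smaller, with Parva at 97.4% and 85.5% and Parvg at 0.555% and 7.45%. Fermt3 and Parvg, both of blood cells, rose with Itgb2 and Ptprc, whose values stand above.

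The genes of the plaque itself differed by less than 1 on the log2 scale at the deposited scaling. At equal totals Zyx was at 2.12, Ptk2 at 1.89, Pxn at 1.77 and Vcl at 1.57, all called higher. The median of all genes at that scaling was 1.26. Zyx, an actin regulator recruited to adhesions under tension, rose from 528, 754 and 574 to 1307, 1181, 1099, 1025 and 1014, a log2 fold change of 0.87 ± 0.15 (adjusted p = 0.000525). Ptk2, the focal adhesion kinase gene, read 476, 349 and 387 against 818, 625, 473, 685 and 579.9, a difference of 0.64 ± 0.19 (adjusted p = 0.0117), with TAZ-CCl4 replicate 3 inside the control range. Pxn, the paxillin scaffold, read 776, 1002 and 932 against 1602, 1212, 1087, 1536 and 1104, a difference of 0.52 ± 0.17 (adjusted p = 0.0192). The call on Ptk2 was lost without control replicate 2 (0.54), and that on Pxn without control replicate 1 (0.42). Vcl, vinculin, which joins talin to actin, read 694, 812 and 1114 against 1104, 812, 1053, 1101 and 1328, with overlapping groups and a difference of 0.32 ± 0.19 (adjusted p = 0.169). Vcl shares 25.5% of its exonic bases with Ap3m1 on the opposite strand.

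By level per kb of transcript, the controls were led by Fermt2, Itgb1 (816), Ilk (636), Itgb5 (297) and Parva (266), and the TAZ-CCl4 livers by Itgb1 (965), Itgb5 (829.8), Ilk (604), Fermt2 (436) and Tln1 (396). In the controls Fermt2 and Itgb1 did not differ beyond their SD, while Ilk at 636 ± 29.6 lay apart from both of its neighbours. In TAZ-CCl4 the gap between Itgb1 and Itgb5 was within the SD of Itgb1 (146) but not that of Itgb5 (82.3). Itgb1 was the higher of the pair in every TAZ-CCl4 library but replicate 2, where their shares were 42.8% and 44.5%. The gap between Fermt2 and Tln1 was within the SD of Tln1 (78.2) but not that of Fermt2 (25.5). By coding length both gaps were beyond either SD (Fermt2 704 ± 41.2 and Tln1 436 ± 86.1). Itga3 went from 32.5 ± 1.47 to 325 ± 92.1 per kb, which brought it among the 10 highest of the 39 genes in TAZ-CCl4. The same 10 genes led under coding length in each group, though in another order, with Parva first in both groups (1400 per kb in the controls, ahead of Fermt2 at 1326.5).

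Other genes of adhesion complexes, from a list of 54 that holds PINCH, Src family, p130Cas, filamin, tensin and LIM-domain genes, also were mostly higher: of 53 tested, 35 rose, 5 fell and 13 missed the threshold, and the median log2 difference was 0.89, against 32.4% higher and 29.8% lower of all genes. At equal totals 52 were higher and none lower, against 76.3% higher of all genes. The largest rise was that of Dab2, an endocytic adaptor for integrins, from 148, 229 and 203 to 8236, 2768, 4851, 5928 and 4905 (4.72 ± 0.30, adjusted p = 1.16e-06). Flnc, a filamin best known from muscle, rose from a mean of 4.63 ± 4.16 to 105 ± 51.3 (4.59 ± 0.71). Its control mean was 2.903 without control replicate 3. Fhl2, a LIM-only co-regulator, rose from 4.97 ± 1.03 to 112 ± 34.2 (4.21 ± 0.33). Flnc and Fhl2, counted among the 35 that rose, reached the minimum mean for testing only through the TAZ-CCl4 libraries. For both genes the filter itself favours a call of higher. The largest falls were small and turned at equal totals: Tns2, a tensin, by -0.84 ± 0.30 (0.41 at equal totals), Sharpin, an inhibitor of integrin activation, by -0.75 ± 0.17 (0.50) and Rap1a, a GTPase that recruits talin, by -0.72 ± 0.17 (0.53). The PINCH genes, named here after their values were seen, differed: Lims1 by 1.75 ± 0.25 and Lims2 by -0.40 ± 0.13, which at equal totals were 2.998 and 0.856, both positive.

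Integrin ligands were higher as well. Of 40 listed, 39 were tested, 31 rose, 4 fell and 4 missed the threshold, and the median log2 difference was 2.74, against 32.4% higher and 29.8% lower of all genes. At equal totals 34 were higher and 1 lower, against 76.3% higher of all genes. Lama5, a chain of the laminins bound by Itga3 and Itga6, rose from 98.8, 138 and 75.1 to 6240, 5920, 3564, 8182 and 3240, a difference of 5.65 ± 0.31 (adjusted p = 5.6e-07). Lama3, a chain of epithelial laminin, went the other way, from 295.6, 200.02 and 200.04 to 26.7, 49.4, 27.9, 26.2 and 23.6, a fall of -2.90 ± 0.29 (adjusted p = 1.57e-05) that was also present at equal totals (-1.67). Ccn2, a matricellular protein, differed by 5.04 ± 0.55 and Tgfb2, a growth factor of the TGF-beta family, by 4.84 ± 0.36. For Ccn2, TAZ-CCl4 replicate 1 stood far above the rest, and without it the TAZ-CCl4 mean fell from 5105 to 2876. The fibrinogen genes Fgg and Fgb, secreted by hepatocytes, differed by -1.25 ± 0.45 and -1.06 ± 0.38 and were at 0.00 and 0.19 at equal totals.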

How the data were processed

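RNA was measured in 8 liver libraries, 3 control and 5 TAZ-CCl4, grouped by the labels. The deposited table holds a signal of normalised counts per gene, made by the authors with kallisto and DESeq2 per the file name. DESeq2 and mm10 are named per the submitters' processing notes, and for versions, annotation and filters the entry is "not given in the sources used here". Sequencing depth behind each value is unknown. Whole reads could not be recovered from the values below 10 (47.3% to 66.7% lay within 0.03 of a whole multiple of the most frequent step), so no count model was run. Of 35204 genes, 12579 had no signal anywhere and 14171 averaged 10 or more. The latter were fitted with limma 3.58.1 (R 4.3.3) with a trend on log2(value + 1), a scale that understates the change of low genes, and p-values were adjusted by Benjamini-Hochberg over all 14171 at a threshold of 0.05. No covariate was used, since the library project coincides with the group.

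Ratios within libraries were compared by exact two-sided permutation (scipy 1.17.1), adjusted over 21. Levels per kb and coordinates used GENCODE M21. The fit was tested on simulated data. Alternatives were pseudocounts of 0.5 and 5, filters, scalings, variance settings, each library left out and the replicate number as a block. The genes, lists and tests were chosen with earlier results of these data known. Values in every library are given for genes whose higher group mean was at least 50 or that had the largest change of their role. From the other lists the 3 largest rises and 3 largest falls among genes called are named. Of these, Dab2, Lama5 and Lama3 have values in every library and the rest have fold changes, some with means.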

Additional observations from a re-analysis of the deposited data

Results flagged for a closer look

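A gap of 1 library from the rest of its group, measured as the distance to its nearest neighbour over the range of the 5 TAZ-CCl4 libraries and compared with Dixon's 95% critical value of 0.71, was looked for in 37 genes and 21 ratios. It was found for 4 genes and 1 ratio, and chance alone gives it in about 1 group in 20. Itga3 was highest in TAZ-CCl4 replicate 1 at 2370 (gap 0.809 of the range). Itgam was also highest in replicate 1, at 930.7 (0.746). Itga6 was highest in replicate 4 at 953 (0.796), the library that was also highest in Spp1. Tln2 was highest in replicate 2 at 393.5 (0.752). The log2 ratio of Parvg to Parva was lowest in replicate 2 at -3.971 (0.754). The calls of Itga3, Itga6 and Itgam held under every alternative run, those that leave out a library included.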

How the results depend on the processing

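Of the 31 genes called, 23 kept their direction and call under all 19 alternatives, except that Itgae and Itgb6 were not tested at a minimum mean of 50, and 8 (Itga7, Itga10, Itgav, Itga2b, Itgb7, Fermt2, Ptk2 and Pxn) lost the call or turned under at least 1. The number called was 26 to 35 over the alternatives, against 31. Scaling moved the counts over all genes most: 10808 were higher and 903 lower at equal totals, and 8912 and 1512 when Mup and mitochondrial genes were left out of those totals, against 4592 and 4230. The number of integrin and adhesion genes called lower was 3, and became 1 with no filter on low values, 0 at equal totals, 0 with the Mup and mitochondrial genes left out of them, 1 at equal upper quartiles and 1 to 3 when 1 library was left out. At equal totals the log2 fold change turned to 0.068 for Itga10, 0.18 for Itga2b, 1.14 for Itgb3, 1.11 for Tln2, 0.34 for Fermt2 and 1.18 for Ilk. With those genes left out of the totals it was 0.73 for Itgb3, 0.69 for Tln2 and 0.76 for Ilk, while Fermt2 was at -0.08 (adjusted p = 0.492). Equal upper quartiles gave 0.15, 0.11 and 0.17 for Itgb3, Tln2 and Ilk, and quantile normalisation gave 0.35 for Ilk. Itgb1, Itgb3, Tln2, Ilk, Parva, Vcl and Fermt2 were called higher at equal totals. Leaving out 1 library gave -0.38 to 0.10 for Itgb3 and -0.43 to 0.037 for Tln2. All 13 ratios with separate groups kept their direction under each alternative run. Left-out and blocked ratios were given as values with no test.

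The replicate numbers do not pair the libraries: deviations of same-numbered libraries from their group means correlated at -0.0665, -0.064 and -0.0883, and no library correlated best with its own number. With the replicate block, 29 integrin and adhesion genes were called, 2 of them lower, and Itgb3 and Tln2 turned to 0.31 and 0.077. Itga10 (adjusted p = 0.0818) and Pxn (0.0755) were no longer called. With 8 libraries and no read depth, differences among genes near the minimum mean of 10 are imprecise, and the values of Itgb6, Itgae, Fermt1 and Parvg in the controls are all under 20.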
